A study of Mus musculus with 59 samples.

Results

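The genes described here encode the nuclear-made subunits of the last steps of oxidative phosphorylation: respiratory complex III, complex IV (cytochrome c oxidase) and ATP synthase. They were taken by name as the protein-coding genes whose symbols start with Uqcr, Cox4 to Cox8 or Atp5, without Atp5s and Atp5sl, with Cyc1 and Usmg5 added. The rule found 45 of 51456 gene identifiers, 9 for complex III, 18 for complex IV and 18 for ATP synthase. Of these, 41 had a mean value of at least 10 over all libraries and were tested, and 4 fell below it. The rule itself reads symbols alone.

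Prefrontal cortex was taken from C57BL/6J mice at postnatal day 25 and sequenced as stranded mRNA libraries, 1 per sample. HT mice were heterozygous for Ank2, which encodes the membrane scaffold ankyrin-B, and WT mice were their wild-type counterparts; how the Ank2 allele was altered is not given in the sources used here. Pups received fluoxetine, a serotonin reuptake inhibitor, or lithium, a mood stabiliser, through their mother's milk for 3 weeks, from day 3 to day 24, and vehicle mice received neither drug. The groups held 10 HT fluoxetine, 10 HT lithium, 10 HT vehicle, 9 WT fluoxetine, 10 WT lithium and 10 WT vehicle libraries, with 5 females and 5 males in each apart from 4 WT fluoxetine males.

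Complex III passes electrons from ubiquinol to cytochrome c, complex IV passes them on to oxygen, and both move protons across the inner mitochondrial membrane. ATP synthase lets the protons flow back and uses that flow to make ATP, which neurons need for ion pumping and synaptic transmission. Each complex joins a few catalytic proteins, some of them made inside the mitochondrion, with many small nuclear-encoded proteins that hold it together, tune it or shape the membrane. Nuclear-encoded subunits are commonly transcribed from GC-rich promoters with sites for NRF1, the ETS-family factor GABP and YY1.

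The series was first checked as a whole. Ank2 ranged over 18539 to 21059 in HT vehicle libraries, against 23284 to 30855 in WT vehicle libraries, and was lower in HT mice with each treatment, with log2 changes of -0.59 ± 0.04 (SE) in fluoxetine, -0.46 ± 0.038 in lithium and -0.54 ± 0.038 in vehicle. Values were the authors' normalized gene values, whose sums over genes ran from 30294665 to 33772261 per library, with 22566 to 23745 identifiers above 0. Markers of excitatory neurons, inhibitory neurons, astrocytes, oligodendrocytes, microglia and endothelial cells were all present, with marker means of at least 589. A few libraries stood apart: HT fluoxetine female replicate 2 had choroid plexus markers summing to 78145 against a median of 147 in its group, Xist in HT fluoxetine female replicate 4 was below the range of the other females, HT vehicle male replicate 2 was high in striatal markers, with a mean log2 deviation of 1.71, and HT vehicle female replicate 1 departed from its group in the genes described here. Results that change without these 4 libraries are given with and without them. In HT fluoxetine female replicate 2 the mean log2 deviation was also 1.655 for oligodendrocyte markers and -0.658 for excitatory neuron markers. HT lithium male replicate 1, with a striatal deviation of 1.95, was left out singly. So was HT lithium male replicate 2, where the Y-linked gene Ddx3y was 668.8, against 1514 to 2191 in the other males, and the oligodendrocyte deviation was -0.80. In whole tissue, fewer cells of a type and less RNA per cell cannot be told apart.

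The promoters of 4 genes are shown because their genes fell together and because they span what the promoters of this gene set hold. They run from 250 bases before to 50 bases after the start of the RefSeq gene (GRCm38.p6), on the gene's strand. Capitals mark matches to a motif on either strand: NRF1 (GCGC, any 2 bases, then GCGC), ETS (CCGGAAG), YY1 (AAGATGG) or ESRRA (AAGGTCA); these motifs do not overlap one another in the 4 sequences. Atp5k, a small membrane subunit of ATP synthase, held 3 motifs. Usmg5, which helps ATP synthase to form dimers, and Uqcrh, the acidic hinge protein of complex III, each held 1. Cox7a2, the liver-type subunit 7A that is widely expressed, held none.
Atp5k (chr5:108434350-108434649, minus strand): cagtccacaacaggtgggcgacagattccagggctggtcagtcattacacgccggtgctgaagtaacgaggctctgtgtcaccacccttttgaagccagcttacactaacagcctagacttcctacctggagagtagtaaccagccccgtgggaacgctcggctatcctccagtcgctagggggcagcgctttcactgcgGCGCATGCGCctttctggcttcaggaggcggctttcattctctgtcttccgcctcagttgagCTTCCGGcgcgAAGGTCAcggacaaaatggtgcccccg
Usmg5 (chr19:47090598-47090897, minus strand): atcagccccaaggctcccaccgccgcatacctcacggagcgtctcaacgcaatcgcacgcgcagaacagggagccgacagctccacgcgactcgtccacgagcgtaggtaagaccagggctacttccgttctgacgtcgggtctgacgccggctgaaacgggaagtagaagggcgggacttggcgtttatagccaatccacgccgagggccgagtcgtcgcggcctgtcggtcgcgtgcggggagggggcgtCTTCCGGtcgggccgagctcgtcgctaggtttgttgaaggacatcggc
Uqcrh (chr4:116075021-116075320, minus strand): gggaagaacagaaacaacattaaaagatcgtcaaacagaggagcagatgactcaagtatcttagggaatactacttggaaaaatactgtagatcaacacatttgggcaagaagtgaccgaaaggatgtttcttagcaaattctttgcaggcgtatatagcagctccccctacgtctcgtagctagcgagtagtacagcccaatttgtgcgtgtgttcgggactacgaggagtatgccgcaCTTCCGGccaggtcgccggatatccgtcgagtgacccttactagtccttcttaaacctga
Cox7a2 (chr9:79759804-79760103, minus strand): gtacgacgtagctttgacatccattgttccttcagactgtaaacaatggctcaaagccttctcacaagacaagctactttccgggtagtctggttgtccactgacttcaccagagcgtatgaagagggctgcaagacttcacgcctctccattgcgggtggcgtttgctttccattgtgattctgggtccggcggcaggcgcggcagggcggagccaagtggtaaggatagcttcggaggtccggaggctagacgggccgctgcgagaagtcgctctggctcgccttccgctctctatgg

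Promoters of 30 of the 41 tested genes could be matched in RefSeq. The ETS motif was found in 11 of these 30 promoters (36.7%), against 9.93% of 27025 mouse genes with a window of the same length. The NRF1 motif was found in 8 (26.7%), against 7% of all genes. The ESRRA motif stood in 4 (13.3%, against 5.38%) and the YY1 motif in 3 (10%, against 7.28%). At least 1 of the 4 motifs was present in 15 of the 22 matched genes that fell with fluoxetine in WT mice and in 3 of the 8 that were not called. No share over all genes was computed for this last count, and the difference between called and uncalled genes was not tested. These are matches of letters and say nothing of binding.

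The 4 genes below the filter were isoforms or a duplicate identifier. Cox8c, a testis form of subunit 8, and a second Atp5o identifier were listed at 0 in every library. Cox7b2, another testis form, averaged 4.04, and Cox8b, the heart and muscle form of subunit 8, averaged 1.73 with 17 libraries at 0. Among forms that can replace each other, 1 form dominated in this cortex when levels were set per kilobase of the principal transcript in WT vehicle libraries. Cox4i1, the general form of subunit 4, stood at 15134 per kilobase, against 32.9 for Cox4i2, the form known from lung and hypoxia. Cox6a1 stood at 10853 and the muscle form Cox6a2 at 163 per kilobase. Cox6b1 stood at 8423 and the testis form Cox6b2 at 53 per kilobase. Cox7a2 stood at 5024, its relative Cox7a2l, classed as a supercomplex factor, at 3290, and the muscle form Cox7a1 at 37.2 per kilobase. Cox8a stood at 16005 per kilobase and Cox8b at 4.68. The 3 genes that encode the identical mature c-ring protein differed less, with 6159 for Atp5g3, 1331 for Atp5g1 and 341 for Atp5g2. Several of these genes have processed pseudogenes or near-identical paralogs in the mouse genome, so their values are uncertain to the extent that reads were shared. Annotated lengths can differ from the transcript in use; the principal transcript of Atp5g1, at 2675.5 bases, was the longest of the set.

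A majority of these mRNAs were lower with fluoxetine than with vehicle in both genotypes, and none was called higher. In HT mice 23 of 41 genes were lower with fluoxetine, beside 7.38% of all 16919 genes tested, and 6.63% of all genes were higher. In WT mice 27 of 41 were lower, beside 7.78% of all genes, and 7% of all genes were higher. The called genes lay at a median of 0.848 of the vehicle level in HT mice (0.658 to 0.94) and at 0.81 in WT mice (0.667 to 0.933). The median log2 change over the 41 genes was -0.17 in HT mice and -0.19 in WT mice, beside medians over all genes of -0.0024 and -0.0006. Calls are from limma with Benjamini-Hochberg adjustment over all genes tested, under 0.05. In both genotypes 22 genes were called lower, which is 95.7% of the HT list and 81.5% of the WT list. HT and WT mice share no library in these comparisons. The drug came through the mother's milk, and the labels do not say whether HT and WT pups shared mothers. The overlap is therefore not known to be independent agreement. Atp5d, Cox4i1, Cox6a1, Cox7a1 and Cox8a passed in WT mice alone and Cox5a in HT mice alone, but the test of the difference between genotypes called none of the 41 genes.

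**Figure D1:**
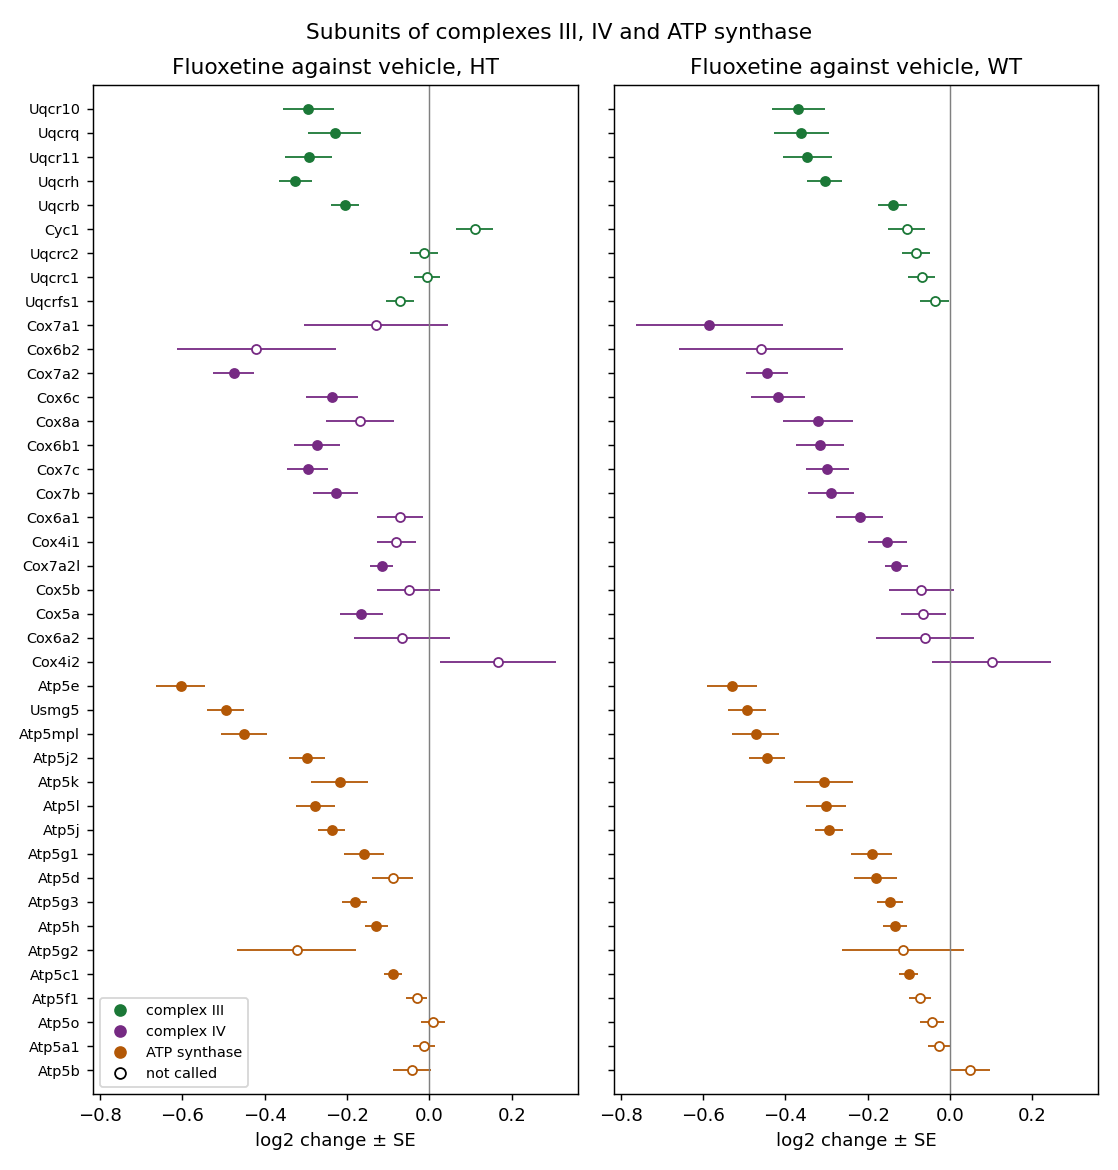
Log2 change with fluoxetine against vehicle (horizontal axis) for the 41 tested genes, grouped by complex, with HT mice in the left panel and WT mice in the right panel. Points are estimates, bars are SE, and filled points passed an adjusted p of 0.05; filled points all lie left of 0, and the lowest of them are small subunits such as Atp5e, Usmg5 and Cox7a2.

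In complex III the small subunits fell and the larger ones were not called. All 5 small subunits (Uqcr10, Uqcr11, Uqcrb, Uqcrh and Uqcrq) fell in both genotypes, with median log2 changes of -0.29 in HT and -0.35 in WT mice for the small subunits of complex III. Uqcrh held 2756 to 3219 (median 3099) in HT fluoxetine libraries, against 2996 to 4210 (median 3974) in HT vehicle libraries. In WT mice it held 2692 to 3329 (median 3159) with fluoxetine, against 3668 to 4142 (median 3771) with vehicle. All WT fluoxetine libraries lay below all WT vehicle libraries, while in HT mice the lowest vehicle library, female replicate 1, reached into the fluoxetine range. The log2 change of Uqcrh was -0.33 ± 0.041 (SE, adjusted p = 1.09e-07) in HT and -0.30 ± 0.042 (adjusted p = 6.42e-07) in WT mice.

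Uqcr10, a small single-span subunit, held 1522 to 1856 (median 1691) in HT fluoxetine libraries, against 1446 to 2322 (median 2148) in HT vehicle libraries, a log2 change of -0.29 ± 0.062 (SE, adjusted p = 0.000711). In WT mice it held 1271 to 1900 (median 1593) with fluoxetine, against 1849 to 2362 (median 2069) with vehicle, a log2 change of -0.37 ± 0.064 (adjusted p = 3.69e-05). The groups overlapped in both genotypes, and HT vehicle female replicate 1, at 1446, lay below every HT fluoxetine library. Uqcr11, the smallest subunit in this group by protein size, changed by -0.29 ± 0.057 in HT and -0.35 ± 0.059 in WT mice. Uqcrb, a ubiquinone-binding subunit, changed by -0.21 ± 0.034 in HT and -0.14 ± 0.035 in WT mice, and Uqcrq by -0.23 ± 0.065 and -0.36 ± 0.067. The core proteins Uqcrc1 and Uqcrc2, which form the matrix-facing body, had log2 changes of -0.0058 ± 0.031 and -0.013 ± 0.033 in HT mice, and of -0.069 ± 0.032 and -0.082 ± 0.035 in WT mice. Cytochrome c1 (Cyc1) stood at 0.11 ± 0.044 in HT and -0.11 ± 0.045 in WT mice, and the Rieske iron-sulfur protein (Uqcrfs1) at -0.072 ± 0.034 and -0.037 ± 0.035.

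In complex IV, whose 3 catalytic proteins are made from mitochondrial DNA, 7 of the 15 nuclear genes tested fell in HT mice and 10 of 15 in WT mice. Of the 10 widely expressed subunits, 6 fell in HT and 8 in WT mice. Cox7a2 held 1900 to 2667 (median 2379) in HT fluoxetine libraries, against 2297 to 3585 (median 3382) in HT vehicle libraries. In WT mice it held 2258 to 2703 (median 2418) with fluoxetine, against 3002 to 3578 (median 3286) with vehicle. The WT groups did not overlap, and in HT mice HT vehicle female replicate 1 was the only vehicle library inside the fluoxetine range. The log2 change was -0.47 ± 0.050 (SE, adjusted p = 1.27e-09) in HT and -0.44 ± 0.051 (adjusted p = 1.64e-08) in WT mice.

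Cox7c, a single-span subunit, held 2688 to 3358 (median 3001) in HT fluoxetine libraries, against 2575 to 4167 (median 3826) in HT vehicle libraries, a log2 change of -0.30 ± 0.050 (SE, adjusted p = 2.95e-05). In WT mice it held 2644 to 3232 (median 3079) with fluoxetine, against 3363 to 4243 (median 3581) with vehicle, a log2 change of -0.30 ± 0.052 (adjusted p = 3.73e-05). The WT groups were apart and the HT groups overlapped. Cox6b1, which faces the intermembrane space where the monomers of complex IV meet, changed by -0.27 ± 0.057 in HT (adjusted p = 0.000621) and -0.32 ± 0.059 in WT mice. Cox6c, another single-span subunit, changed by -0.24 ± 0.063 in HT and -0.42 ± 0.065 in WT mice (adjusted p = 6.23e-06). Cox7b, also single-span, fell by 0.23 and 0.29 on the log2 scale in HT and WT mice. Cox5b, the zinc-binding subunit, was not called in either genotype.

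Cox4i1, which takes part in inhibition of the complex by ATP, gave -0.080 ± 0.046 in HT (adjusted p = 0.263) and -0.15 ± 0.048 in WT mice (adjusted p = 0.0228). Cox6a1 gave -0.072 ± 0.056 in HT (adjusted p = 0.427) and -0.22 ± 0.058 in WT mice (adjusted p = 0.00571), and Cox8a gave -0.17 ± 0.083 and -0.32 ± 0.086. Cox7a2l fell slightly in both genotypes, with -0.12 ± 0.027 in HT and -0.13 ± 0.028 in WT mice. Of the 4 tissue isoforms tested, Cox7a1 passed in WT mice alone, holding 6.59 to 14.6 (median 7.77) in WT fluoxetine libraries, against 10.8 to 24 (median 13) in WT vehicle libraries. Its values lie close to the filter and the groups overlapped; its log2 change was -0.58 ± 0.18 (SE, adjusted p = 0.019). Cox4i2, Cox6a2 and Cox6b2 were not called in either genotype.

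**Figure D2:**
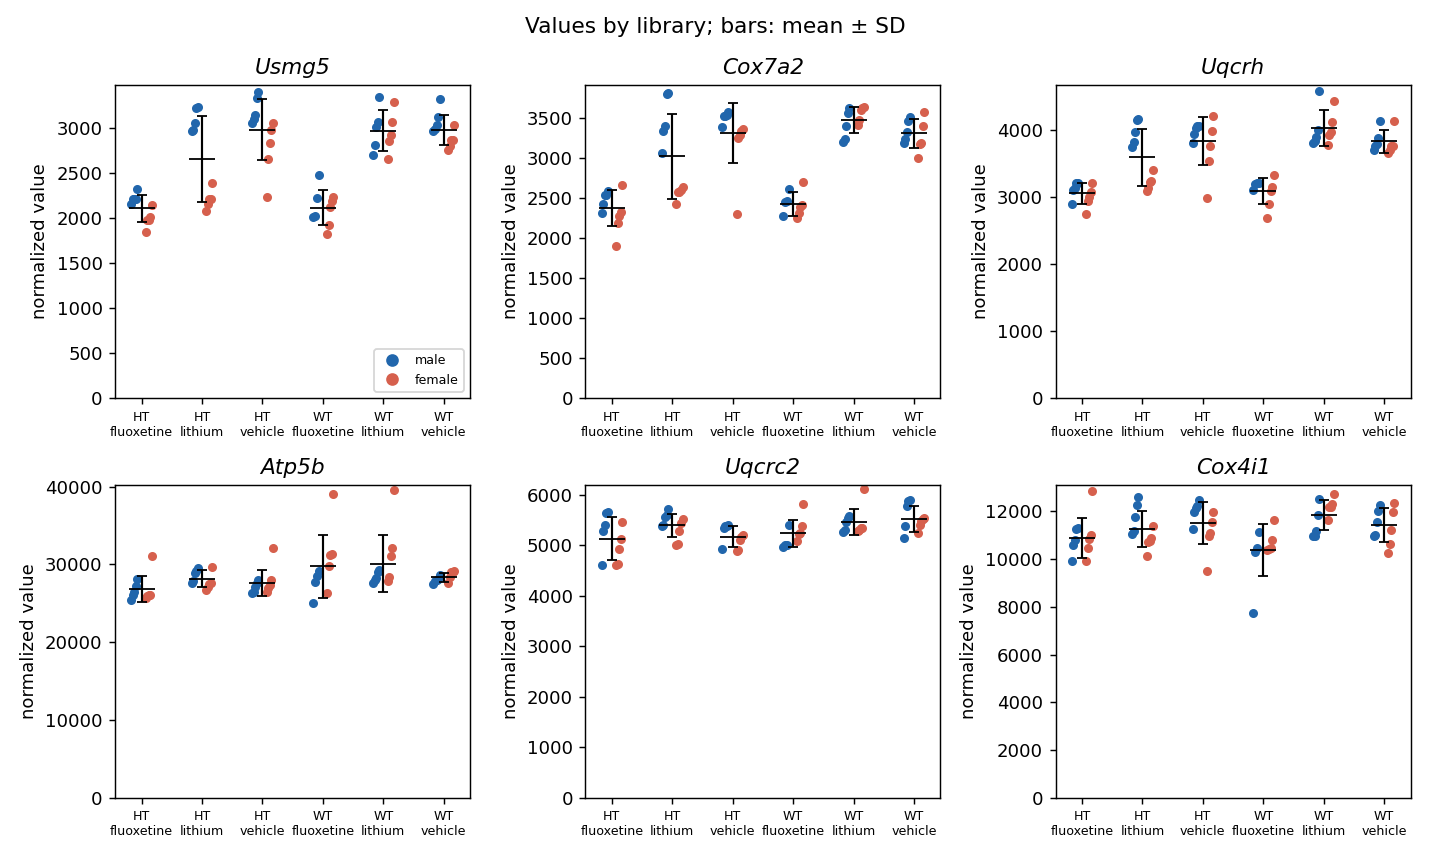
Normalized value (vertical axis, from 0) of 6 genes in each library of the 6 groups, males left in blue and females right in red; bars are the mean ± SD. Usmg5, Cox7a2 and Uqcrh are lower in fluoxetine than in vehicle libraries and split by sex in HT lithium libraries, whereas the ranges of Atp5b and Uqcrc2 overlap between fluoxetine and vehicle in both genotypes, with single Atp5b values of 38987 in WT fluoxetine and 39510 in WT lithium libraries above the rest.

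In ATP synthase 11 of 17 genes fell in HT mice and 12 of 17 in WT mice. All 5 membrane accessory subunits (Usmg5, Atp5j2, Atp5k, Atp5l and Atp5mpl), which sit around the proton channel and bend the membrane, fell in both genotypes; the membrane accessory subunits of ATP synthase had median log2 changes of -0.30 in HT and -0.44 in WT mice. Usmg5 held 1844 to 2323 (median 2147) in HT fluoxetine libraries, against 2238 to 3400 (median 3059) in HT vehicle libraries. In WT mice it held 1821 to 2478 (median 2122) with fluoxetine, against 2756 to 3321 (median 2979) with vehicle. Every WT fluoxetine library was below every WT vehicle library, and in HT mice HT vehicle female replicate 1, at 2238, overlapped with the highest fluoxetine library. The log2 change was -0.50 ± 0.045 (SE, adjusted p = 5.12e-11) in HT and -0.49 ± 0.046 (adjusted p = 1.92e-10) in WT mice, the smallest p of the gene set in both.

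Atp5mpl, a small proteolipid of the same region, changed by -0.45 ± 0.055 (SE, adjusted p = 6.26e-08) in HT and -0.47 ± 0.057 (adjusted p = 5.2e-08) in WT mice. Atp5j2 held 1767 to 2137 (median 1967) in HT fluoxetine libraries, against 1729 to 2764 (median 2467) in HT vehicle libraries, and 1679 to 2065 (median 1844) in WT fluoxetine libraries, against 2373 to 2845 (median 2557) in WT vehicle libraries. Its groups were apart in WT mice, while in HT mice HT vehicle female replicate 1, at 1729, lay below every fluoxetine library. Its log2 change was -0.30 ± 0.043 (SE, adjusted p = 2.2e-06) in HT and -0.44 ± 0.045 (adjusted p = 6.82e-10) in WT mice. Atp5l changed by -0.28 ± 0.047 and -0.30 ± 0.049, and Atp5k by -0.22 ± 0.070 and -0.31 ± 0.072, in HT and WT mice in that order.

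In the F1 head, where ATP is made, the catalytic subunits Atp5a1 and Atp5b were not called. Atp5b held 25417 to 31100 (median 26102) in HT fluoxetine libraries, against 26369 to 32047 (median 27187) in HT vehicle libraries, with a log2 change of -0.043 ± 0.046 (SE, adjusted p = 0.593). In WT mice it held 25011 to 38987 (median 29167) with fluoxetine, against 27526 to 29157 (median 28272) with vehicle, with 0.050 ± 0.048 (adjusted p = 0.564). The groups overlapped in both genotypes, and WT fluoxetine libraries spread more widely than WT vehicle libraries. Atp5a1 gave -0.013 ± 0.028 in HT and -0.026 ± 0.028 in WT mice.

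The small epsilon subunit of the central stalk, Atp5e, had the lowest change of the 41 genes in HT mice. Atp5e held 916 to 1304 (median 1017) in HT fluoxetine libraries, against 1097 to 1756 (median 1625) in HT vehicle libraries, and 920 to 1172 (median 1092) in WT fluoxetine libraries, against 1401 to 1655 (median 1575) in WT vehicle libraries. The WT groups did not overlap and the HT groups did. Its log2 change was -0.60 ± 0.060 (SE, adjusted p = 5.29e-10) in HT and -0.53 ± 0.061 (adjusted p = 1.67e-08) in WT mice. The gamma subunit Atp5c1, the rotating shaft, fell by 0.089 in HT and 0.10 in WT mice on the log2 scale, and the delta subunit Atp5d passed in WT mice alone with -0.18 ± 0.051.

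In the peripheral stalk, which keeps the head from turning, Atp5j and Atp5h fell in both genotypes while Atp5f1 and Atp5o were not called. Atp5j changed by -0.24 ± 0.033 (SE, adjusted p = 6.05e-07) in HT and -0.29 ± 0.034 (adjusted p = 1.5e-08) in WT mice, and Atp5h by -0.13 ± 0.028 and -0.13 ± 0.029. Of the 3 c-ring genes, Atp5g1 gave -0.16 ± 0.047 in HT and -0.19 ± 0.049 in WT mice and Atp5g3 gave -0.18 ± 0.030 and -0.15 ± 0.031, all 4 called. The third, Atp5g2, had wide errors and was not called, at -0.32 ± 0.14 in HT and -0.11 ± 0.15 in WT mice.

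Single libraries separated the WT groups for 10 genes: Atp5e, Atp5j, Atp5j2, Usmg5, Uqcrh, Uqcrq, Cox6b1, Cox6c, Cox7a2 and Cox7c had every WT fluoxetine library below every WT vehicle library, as did 0.975% of all genes tested. In HT mice no gene of the set was separated in this way, as were 0.171% of all genes. Within each sex the fall was present in both: 12 genes were called lower in HT females (4.43% of all genes), 18 in HT males (2.39%), 18 in WT females (3.98%) and 22 in WT males (3.32%). The test of a difference in the fluoxetine effect between males and females called 0 of the 41 genes with limma (0% of all genes), with 3 at an unadjusted p under 0.05 (12.7% of all genes). Those with the smallest p were Cox4i1, at -0.16 ± 0.067 (SE, adjusted p = 0.306), and Cox7a1, at -0.60 ± 0.25 (adjusted p = 0.312), males minus females. The test of a difference between genotypes called 0 (0% of all genes), with 2 at an unadjusted p under 0.05 (7.63% of all genes); these were Cyc1, at 0.21 ± 0.063 (adjusted p = 0.432), and Atp5j2, at 0.15 ± 0.062 (adjusted p = 0.631), HT minus WT.

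Larger falls went with shorter mRNAs. The 41 genes had principal transcripts of 362 to 2675.5 bases with a median of 680, against a median of 2818 over all genes tested. Across the 41 genes the log2 change with fluoxetine and transcript length had a Spearman rho of 0.68 in HT and 0.67 in WT mice and a Pearson r of 0.60 and 0.62; genes are not independent replicates and share the same libraries. The log2 change with fluoxetine also rose with the mean value of a gene, with a Spearman rho of 0.47 in HT and 0.36 in WT mice. Other genes with short mRNAs were often lower too. Among genes with a mean value of at least 1000 and a principal transcript of over 500 and up to 700 bases, 9 of 11 subunits (81.8%) and 65.8% of 79 other genes were lower in HT fluoxetine mice, with median log2 changes of -0.24 and -0.23. In WT mice these were 10 of 11 subunits (90.9%) and 68.4% of the other genes, with medians of -0.30 and -0.25. At 500 bases or less, all 6 subunits and 60% of 25 other genes were lower in each genotype. Above 2000 bases 1 of 2 subunits was lower in each genotype, beside 3.22% of 5065 other genes in HT and 2.96% in WT mice.

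**Figure D3:**
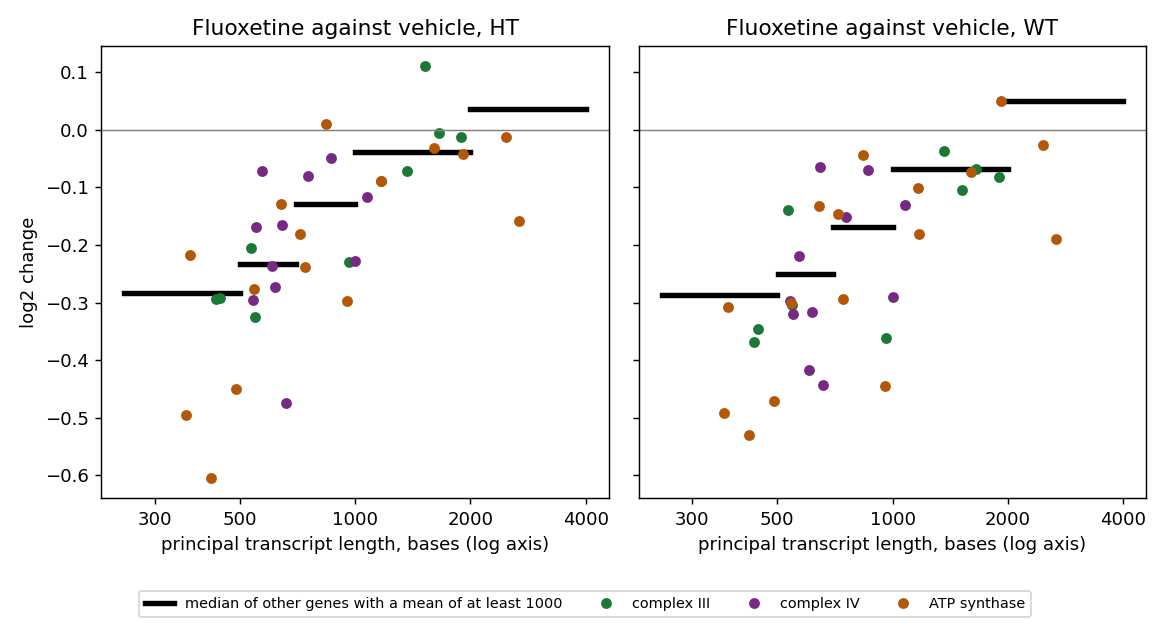
Log2 change with fluoxetine against vehicle (vertical axis) by principal transcript length (horizontal log axis) for the subunits with a mean value of at least 1000, coloured by complex, in HT (left) and WT (right) mice. Black bars give the median of all other genes in the same length class (bounded at 500, 700, 1000 and 2000 bases); subunits and other genes shift from lower values at short lengths towards 0 at long ones.

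The same dependence was seen library by library. A length slope was computed for each library by regressing every gene's deviation from its overall mean on the log2 of its transcript length, with genes averaging 250 or more. A higher slope means that short mRNAs are low relative to long ones. This slope was taken up because it had moved with fluoxetine in an earlier look at these same data. Its p-values for fluoxetine are therefore no separate evidence. The slope was -0.011 to 0.065 in HT fluoxetine libraries, against -0.065 to 0.069 in HT vehicle libraries, a difference of 0.054 (exact permutation test within sexes, two-sided, p = 0.0011, Benjamini-Hochberg over 4 comparisons 0.0022). It was 0.026 to 0.090 in WT fluoxetine libraries, against -0.059 to -0.014 in WT vehicle libraries, a difference of 0.083 (exact permutation p = 3.1e-05, the smallest this test can give, adjusted 0.00012). The highest HT vehicle slope belonged to female replicate 1. With lithium the slope differed from vehicle by 0.025 in HT mice (exact permutation p = 0.087, adjusted 0.12) and by 0.0083 in WT mice (exact permutation p = 0.17, adjusted 0.17). The mean log2 deviation of the 41 subunits was -0.22 to -0.074 in HT fluoxetine libraries, against -0.27 to 0.17 in HT vehicle libraries, and -0.29 to -0.079 in WT fluoxetine libraries, against -0.0049 to 0.16 in WT vehicle libraries.

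With a per-library trend on length and GC content taken out, 11 subunits were called lower and 2 higher in HT mice, and 11 lower and 1 higher in WT mice; in this fit 4.11% of all genes were lower in HT and 2.54% in WT mice. The median log2 changes of the 41 genes were -0.032 in HT and -0.057 in WT mice, beside medians over all genes of 0.0078 and 0.0035. All of these 11 were among the genes called before, in each genotype. Atp5e, Atp5g1, Atp5j, Atp5j2, Atp5mpl, Usmg5, Uqcrh and Cox7a2 were lower in both genotypes, joined by Atp5l, Uqcr11 and Cox6b1 in HT and by Uqcrq, Cox6c and Cox7b in WT mice. The correction of Atp5g1 used its annotated length of 2675.5 bases, which can differ from the transcript in use. Its change hardly moved, from -0.159 to -0.156 in HT and from -0.191 to -0.180 in WT mice. Atp5o was called higher in both genotypes and Cyc1 in HT mice. Of the genes called lower before, Atp5c1 and Atp5h in HT mice, and Atp5c1, Atp5g3, Atp5h, Uqcrb and Cox4i1 in WT mice, had changes just above 0 and uncalled. The length slope was then added to the model as a covariate, a choice made after seeing the data. With this covariate 9 subunits were lower and 4 higher in HT mice. In WT mice, where the slopes of the fluoxetine and vehicle groups do not overlap, 1, Usmg5, was lower. Over all genes the covariate fit also called far fewer in WT than in HT mice, with counts given under the processing results below. Its subunit counts therefore cannot be compared between the genotypes. The cause of the length dependence was not tested.

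**Figure D4:**
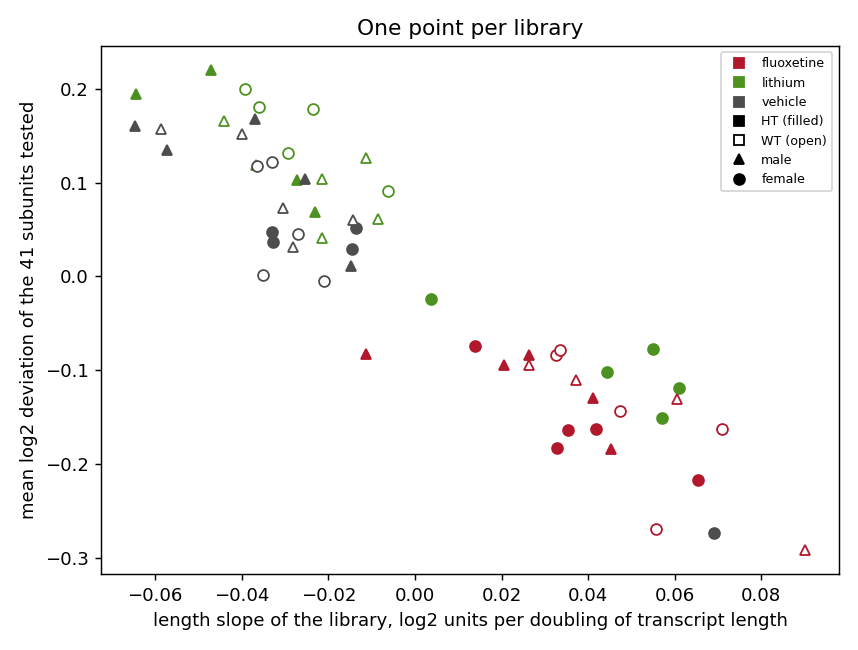
Mean log2 deviation of the 41 tested subunits (vertical axis) against the length slope of the library (horizontal axis, log2 units per doubling of transcript length), 1 point per library. Colours give the drug, filled points are HT and open points WT, triangles males and circles females; HT lithium females (filled green circles) lie towards the fluoxetine libraries, and 1 HT vehicle female lies at the lower right.

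Related genes of the respiratory chain were counted by list. The shares over all genes tested were 7.38% lower and 6.63% higher with fluoxetine in HT mice, and 7.78% and 7% in WT mice. Of 36 nuclear complex I subunits, 30 were lower with fluoxetine in HT and 32 in WT mice, with medians of -0.20 and -0.24 for the nuclear complex I subunits. Ndufa4, first assigned to complex I and now counted in complex IV, changed by -0.32 ± 0.040 (SE, adjusted p = 1.23e-07) in HT and -0.31 ± 0.041 (adjusted p = 2.69e-07) in WT mice. Of the 4 genes of complex II, 2 fell in HT and 3 in WT mice; Sdhb, an iron-sulfur subunit, changed by -0.16 ± 0.032 and -0.18 ± 0.033. Cytochrome c itself (Cycs), the carrier between complexes III and IV, fell in HT mice, at -0.13 ± 0.040 (adjusted p = 0.0204), and gave -0.092 ± 0.042 (adjusted p = 0.139) in WT mice. Of the 6 mitochondrially encoded subunits of the same complexes, none was called in WT mice and 1 in HT mice, mt-Co2, which was higher at 0.67 ± 0.23 (adjusted p = 0.0377).

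Among 6 complex III assembly factors, 1 fell in HT and 2 in WT mice, led by Uqcc2 at -0.40 ± 0.053 in HT (adjusted p = 2.18e-07) and -0.37 ± 0.055 in WT mice. Among 22 complex IV assembly factors tested, 8 fell in HT mice, and 9 fell and 1 rose in WT mice. Cox14, which acts with newly made mt-Co1 protein, changed by -0.33 ± 0.056 in HT and -0.30 ± 0.057 in WT mice, and the gene that rose, Lrpprc, which stabilises mitochondrial mRNAs, by 0.10 ± 0.033 in WT mice. Of 5 ATP synthase assembly and inhibitor genes, 2 fell in each genotype: Fmc1, an assembly factor known from yeast and human cells, at -0.43 ± 0.078 and -0.37 ± 0.080, and Atpif1, the inhibitor of ATP hydrolysis, at -0.26 ± 0.045 and -0.29 ± 0.047, HT before WT. Of 7 transcriptional regulators, the ESRRA gene Esrra fell in HT mice at -0.12 ± 0.041 (SE, adjusted p = 0.0466). In WT mice Yy1 rose at 0.11 ± 0.030 and Ppargc1a, the coactivator that drives mitochondrial biogenesis, rose at 0.18 ± 0.056 (adjusted p = 0.0243). A single call in a list of 6 or 7 genes is close to the share over all genes and is no result about that list.

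Markers of other cell types were counted in the same comparisons, where 7.38% of all genes were lower and 6.63% higher in HT mice, and 7.78% and 7% in WT mice. Single calls among 6 markers are close to these shares. Of 5 blood cell markers, 4 were lower in HT and 3 in WT mice, and none was at 0. Their summed value was 4215 to 9942 in HT fluoxetine libraries, against 8105 to 14633 in HT vehicle libraries, and 5018 to 9015 in WT fluoxetine libraries, against 6856 to 11690 in WT vehicle libraries. Of 6 astrocyte markers, 1 was higher in each genotype, with sums of 150984 to 203839 in HT fluoxetine libraries against 125168 to 158197 in HT vehicle libraries, and 140223 to 173031 in WT fluoxetine libraries against 107234 to 151652 in WT vehicle libraries. Of 6 excitatory neuron markers, 1 was higher in HT and none was called in WT mice, with sums of 177321 to 228687 (median 203273) in HT fluoxetine libraries against 147774 to 191880 (median 180153) in HT vehicle libraries, and 141197 to 207882 (median 195959) in WT fluoxetine libraries against 131047 to 193323 (median 176828) in WT vehicle libraries. None of 6 inhibitory neuron markers was called, with sums of 19618 to 27091 (median 22349) in HT fluoxetine libraries against 21977 to 30442 (median 24672) in HT vehicle libraries, and medians of 25856 in WT fluoxetine and 25273 in WT vehicle libraries. Of 6 microglial markers 1 was higher in each genotype, of 6 endothelial markers 2 were lower in HT mice and 1 was lower and 1 higher in WT mice, and no oligodendrocyte marker was called. Sums of 6 olfactory bulb markers, chosen from earlier results of these data, ranged widely within groups. They were 184 to 3896 in HT fluoxetine, 335 to 6990 in HT vehicle, 286 to 8319 in WT fluoxetine and 1136 to 9381 in WT vehicle libraries. Their medians with lithium were 1727 in HT and 3414 in WT mice. The part of these cell types and of olfactory bulb tissue in the subunit results was not tested.

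With lithium, none of the 41 genes was called against vehicle in WT mice (2.22% of all genes called in either direction by limma), 3 had an unadjusted p under 0.05 (13.5% of all genes), and the median log2 change was 0.043. The smallest p belonged to Atp5g2, at 0.39 ± 0.14 (SE, adjusted p = 0.171), and Atp5o, at 0.076 ± 0.029 (adjusted p = 0.178). In HT mice Usmg5 alone was called lower, beside 2.26% of all genes, holding 2078 to 3239 (median 2677) in HT lithium libraries, against 2238 to 3400 (median 3059) in HT vehicle libraries. The groups overlapped over much of their range; the log2 change was -0.18 ± 0.045 (SE, adjusted p = 0.0123). This count depends on single libraries. Without HT vehicle female replicate 1, 9 of the 41 genes were called, all lower, beside 752 lower among all 16919 genes. Without HT lithium male replicate 2, 2 were called, all lower, beside 341 lower among all genes. Without HT vehicle female replicate 5, 1 was called lower and 1 higher, beside 339 lower and 418 higher among all genes. The test of a difference in the lithium effect between genotypes called 0 genes (0% of all genes), with 11 at an unadjusted p under 0.05 (6.73% of all genes); the smallest p were those of Cox7a2, at -0.21 ± 0.070 (adjusted p = 0.572), and Atp5e, at -0.25 ± 0.084 (adjusted p = 0.572). Without the 4 libraries that stood apart, 9 genes were called lower with lithium in HT mice, beside 872 of all genes, and 2 in the test between genotypes, beside 19 of all genes.

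By sex, 6 of the 41 genes were lower with lithium in HT females, beside 2.35% of all genes, and none was called in HT males (0.0177% of all genes, with 2 of the 41 at an unadjusted p under 0.05, beside 8.79%). Usmg5 held 2078, 2158, 2215, 2217 and 2386 in HT lithium females, against 2238, 2659, 2832, 2981 and 3058 in HT vehicle females, and only HT vehicle female replicate 1 lay within the lithium range. Its log2 change in females was -0.31 ± 0.063 (SE, adjusted p = 0.00295). The others were Atp5e at -0.34 ± 0.084, Cox7a2 at -0.26 ± 0.070, Atp5mpl at -0.26 ± 0.078, Uqcrh at -0.19 ± 0.058 and Atp5j at -0.15 ± 0.046. The test of the lithium effect in HT males minus that in HT females called 0 genes (0% of all genes), with 9 at an unadjusted p under 0.05 (8.16% of all genes), among them Usmg5 at 0.26 ± 0.090 (adjusted p = 0.427). In WT mice lithium called 0 genes in females (1.18% of all genes, with 9 of the 41 at an unadjusted p under 0.05, all higher, beside 14.6% of all genes) and 0 in males (0.065%, with 1 of the 41 at that p, beside 10.7%).

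Set directly against lithium, fluoxetine libraries were lower for 21 of 41 genes in HT mice (6.88% of all genes lower) and for 31 of 41 in WT mice (11.2%). The median log2 changes were -0.14 in HT and -0.29 in WT mice. These comparisons share the fluoxetine libraries with those against vehicle. In WT mice 13 genes had every fluoxetine library below every lithium library, as did 1.28% of all genes, and in HT mice none did, as did 0.195%. Usmg5 gave -0.31 ± 0.045 (SE, adjusted p = 3.11e-06) in HT and -0.49 ± 0.046 (adjusted p = 6.71e-11) in WT mice. The lowest change in WT mice was that of the weakly expressed Cox7a1, at -0.93 ± 0.18. After removal of the length and GC trend, 10 genes remained lower in HT mice, beside 5.85% of all genes, and 19 in WT mice, beside 7.41%.

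Between genotypes, no subunit was called in vehicle or in fluoxetine mice. In vehicle mice none of the 41 was called between HT and WT by limma (0.00591% of all genes called) and 3 had an unadjusted p under 0.05 (3.42% of all genes); Uqcrc2 gave -0.096 ± 0.033 and Cyc1 gave -0.097 ± 0.044 (SE, adjusted p = 1 for both). In fluoxetine mice none was called (0.0118% of all genes) and 5 had an unadjusted p under 0.05 (15.7% of all genes); the smallest p were those of Atp5b, at -0.13 ± 0.048 (adjusted p = 0.174), and Uqcrfs1, at -0.096 ± 0.035 (adjusted p = 0.179). In lithium mice 5 genes were lower in HT than in WT, beside 0.319% of all genes: Cox7a2 at -0.22 ± 0.050 (SE, adjusted p = 0.0264), Uqcrh at -0.17 ± 0.041, Uqcr10 at -0.25 ± 0.062, Usmg5 at -0.18 ± 0.045 and Atp5e at -0.24 ± 0.060. These 5 calls lay close to the threshold and their number depends on single libraries. It fell to 0 without HT lithium female replicate 3, HT lithium male replicate 1, WT lithium female replicate 1, or WT lithium male replicate 1 or 4. It fell to 1 without HT lithium male replicate 3, WT lithium female replicate 3 or WT lithium male replicate 3, and to 2 without HT lithium female replicate 4, WT lithium female replicate 5 or WT lithium male replicate 5. It was 3 without HT lithium female replicate 1 or 2, HT lithium male replicate 2 or 5, WT lithium female replicate 4 or WT lithium male replicate 2. Over all genes, 12 to 78 were lower in these fits. Without the 4 libraries that stood apart, which enter through the shared spread alone, the number of subunits called was 8, beside 174 lower among all genes.

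In comparisons of genotypes by sex, the lithium difference was called in females and not in males. In females 25 of 41 genes were lower in HT than in WT mice, beside 2.57% of all genes. In males none was called, where limma called 0.0118% of all genes and 2 of the 41 had an unadjusted p under 0.05 (12% of all genes). The difference between the sexes, a test chosen after these values were seen, was called for 6 genes, all higher in males minus females, beside 0.567% of all genes. Uqcr10 held 2047, 2058, 2091, 2306 and 2464 in HT lithium males and 1361, 1671, 1732, 1738 and 1749 in HT lithium females, and 2033, 2066, 2183, 2278 and 2400 in WT lithium males and 2125, 2295, 2301, 2452 and 2545 in WT lithium females. HT lithium females stood below all other lithium libraries. The difference of the genotype effect, males minus females, was 0.51 ± 0.12 (SE, adjusted p = 0.033).

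Cox7a2 held 3064, 3343, 3399, 3800 and 3822 in HT lithium males and 2424, 2577, 2584, 2602 and 2646 in HT lithium females, and 3203, 3243, 3410, 3563 and 3627 in WT lithium males and 3415, 3474, 3602, 3624 and 3639 in WT lithium females; the difference was 0.50 ± 0.099 (SE, adjusted p = 0.011). Usmg5 held 2968, 2982, 3052, 3220 and 3239 in HT lithium males and 2078, 2158, 2215, 2217 and 2386 in HT lithium females, and 2696, 2809, 3017, 3072 and 3340 in WT lithium males and 2651, 2851, 2923, 3069 and 3291 in WT lithium females; the difference was 0.47 ± 0.090 (adjusted p = 0.01). For both genes the HT lithium females were the 5 lowest of the 20 lithium libraries. The other called genes were Cox7c at 0.42 ± 0.10, Atp5j2 at 0.36 ± 0.087 and Atp5j at 0.28 ± 0.065.

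HT lithium males lay wholly above HT lithium females for 22 of the 41 genes, beside 4.16% of all genes, and none of the 41 showed this in WT lithium mice (0.881%). HT lithium females lay wholly below WT lithium females for 20 genes, beside 3.39% of all genes. In HT vehicle mice Usmg5 and Cox7a2 had all males above all females, beside 1.44% of all genes. The length slope moved with this pattern: it was -0.064 to -0.023 in HT lithium males and 0.0038 to 0.061 in HT lithium females, against -0.044 to -0.0085 in WT lithium males and -0.039 to -0.0061 in WT lithium females. Of the 25 genes lower in HT lithium females, Atp5j2, Uqcr10 and Cox7a2 were called once the length and GC trend was removed, and the trend-free fit called 0 genes as different between the sexes. Over all genes the comparison of HT with WT lithium females also held 24 of 36 nuclear complex I subunits lower. Without HT lithium female replicate 3, 13 genes were called in females, beside 238 lower among all genes, and without WT lithium female replicate 1, 15, beside 263. The 6 calls between the sexes became 2 without HT lithium female replicate 3, HT lithium male replicate 2 or 4, or WT lithium male replicate 2, and 3 without HT lithium female replicate 4 or WT lithium female replicate 1 or 3. They became 10 without HT lithium male replicate 1, 11 without HT lithium male replicate 3 or WT lithium male replicate 3, and 12 without WT lithium female replicate 2. Over all genes, 25 to 57 were higher in the fits with 2 or 3 calls and 97 to 145 in those with 10 to 12. Without the 4 libraries that stood apart the calls between the sexes became 17, beside 257 higher among all genes. None of the 6 markers of astrocytes, oligodendrocytes, microglia, endothelial cells or either class of neuron, nor of the 5 of blood cells, was called between HT and WT lithium females.

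**Figure D5:**
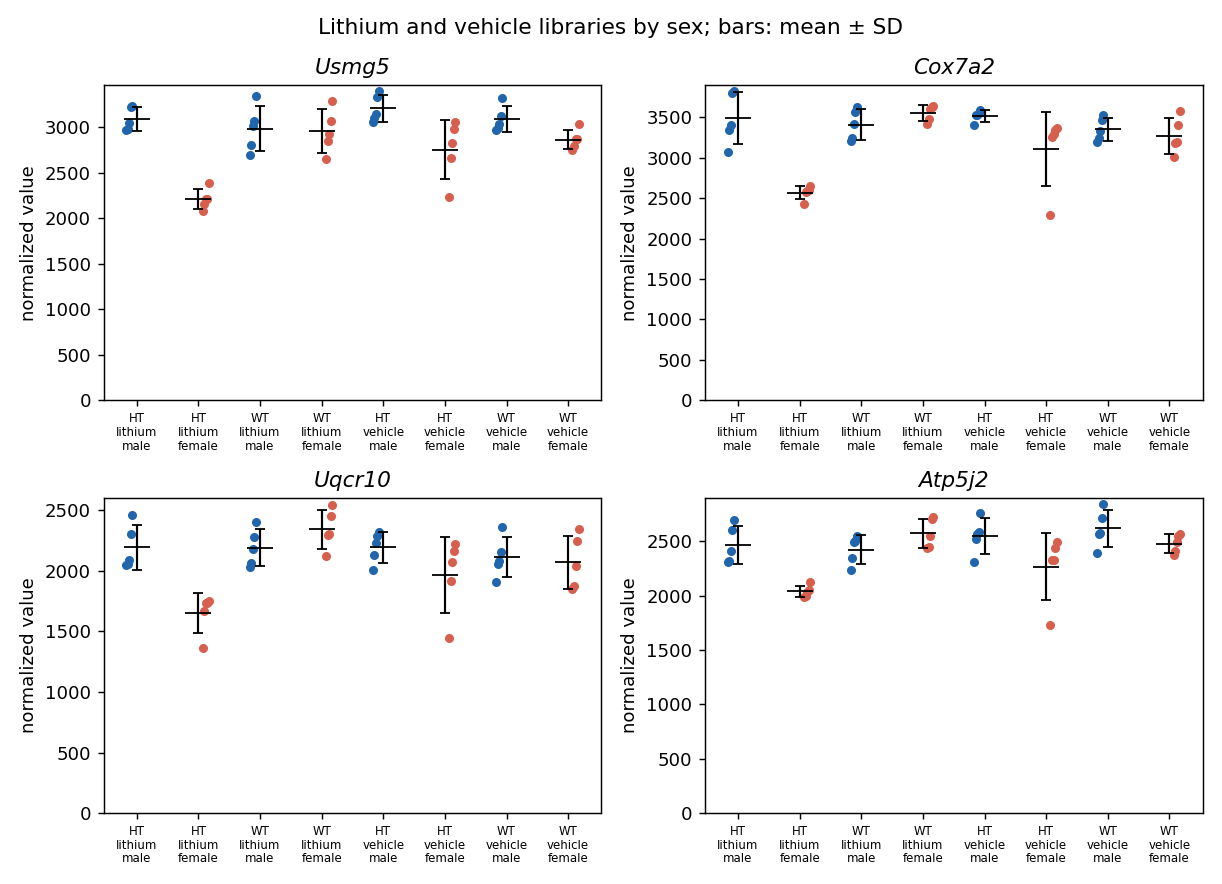
Normalized value (vertical axis, from 0) of Usmg5, Cox7a2, Uqcr10 and Atp5j2 in lithium and vehicle libraries by genotype and sex, males in blue and females in red; bars are the mean ± SD. HT lithium females lie below HT lithium males and below both WT lithium groups, and 1 HT vehicle female lies low as well.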

How the data were processed

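Messenger RNA of 59 prefrontal cortex samples was made into libraries with a stranded Illumina kit, per the labels' protocols. The deposited signal values are gene-level estimated counts that the authors normalized between libraries; the submitters' processing notes name Salmon 0.11.2, R 3.6.0, DESeq2 1.19.11 and the build GRCm38. Raw counts could not be recovered, since 28.4 to 66.8% of low values were whole steps of 1 read (tolerance 0.1), so counting error is not given and no count model was run; the normalized values were tested with limma, and no interval needs a depth. Library sums were 30294665 to 33772261.

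Groups were taken from the sample titles. Genes with a mean of at least 10 (16919) were tested on log2(value + 1) with limma 3.58.1 in R 4.3.3, with trended, robust moderation, 12 group means by genotype, drug and sex, 47 residual degrees of freedom and contrasts averaged over the sexes. The pseudocount makes fold changes of low genes too small. Benjamini-Hochberg adjustment ran over all genes tested, with a threshold of 0.05. Of 25 comparisons, 12 were planned, 10 were by sex and 3 were added after seeing the data. Labels do not say whether libraries came from separate animals or litters, so p-values measure the spread between these samples. The members, the lists and the length slope were chosen with earlier results of these data known.

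Genes given in full were, for each complex, the 3 called with the smallest p with fluoxetine in each genotype, those called higher in any comparison, those called in a comparison without fluoxetine libraries, the 2 with the smallest p where none was called, and isoform pairs. Transcript lengths and GC content came from GENCODE M21 principal transcripts, and promoters from RefSeq. The length trend was a spline per library on length and GC content with 4 degrees of freedom. The procedure was tested on simulated data. Tables and figures used Python 3.11.15, pandas 2.3.3, NumPy 2.4.6 and matplotlib 3.10.9. Alternatives were other pseudocounts, filters, scalings, moderation, a replicate block, trend removal and leaving out each library.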

Additional observations from a re-analysis of the deposited data

Results flagged for a closer look

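A library whose gap to its neighbour was large for the range of its group marked 23 of 138 combinations of a group with a gene or library measure; chance marks about 1 in 20 such groups. HT vehicle female replicate 1 accounted for 15 of them. Its values were 1097 for Atp5e, 1729 for Atp5j2, 1307 for Atp5mpl, 3590 for Cox6b1, 3619 for Cox6c, 2297 for Cox7a2, 2575 for Cox7c, 1446 for Uqcr10, 1811 for Uqcr11 and 2996 for Uqcrh, all below the rest of its group, and 32047 for Atp5b, above it. Atp5o at 3230 and Cox4i1 at 9483 were also apart, as were the mean log2 deviation of the subunits, -0.27, and the length slope, 0.069.

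Of the other libraries, HT fluoxetine female replicate 2 had 31100 for Atp5b, HT fluoxetine female replicate 4 had 12860 for Cox4i1 and HT fluoxetine male replicate 4 had 101 for Atp5g2. WT fluoxetine female replicate 4 had 38987 for Atp5b, and WT fluoxetine male replicate 1 had 7722 for Cox4i1 and 3305 for Cox6b1. WT lithium female replicate 5 had 39510 for Atp5b and 6127 for Uqcrc2.

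The HT against WT difference in lithium mice was itself different between males and females for 6 genes in limma's test of that difference. On the log2 scale, males minus females, it was 0.47 for Usmg5, 0.28 for Atp5j, 0.36 for Atp5j2, 0.51 for Uqcr10, 0.50 for Cox7a2 and 0.42 for Cox7c. These tests were chosen after the values by sex were seen, and none passed once the length and GC trend was removed.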

How the results depend on the processing

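Counts of called subunits with fluoxetine kept their size under other pseudocounts, filters, scalings, moderation and the replicate block, and changed with the length of the mRNAs. With the length and GC trend removed the counts were 12 (fluoxetine, WT), 13 (fluoxetine, HT), 1 (lithium, WT), 3 (lithium, HT), 19 and 10 (fluoxetine against lithium, WT and HT), 0 (HT against WT in lithium), 3 (the same in females) and 0 (males minus females). Over all genes this fit called 920, 1605, 417, 777, 2665, 1985, 27, 136 and 0 in the same order. With the library's length slope as a covariate, added after seeing the data, the subunit counts were 1, 13, 2, 2, 10, 11, 0, 0 and 0 in the same order. Calls over all genes were then 26, 1910, 376, 596, 1079, 2388, 54, 5 and 0. In both of these fits every subunit called with lithium against vehicle was higher, so Usmg5 was no longer called lower in HT mice. Beside these lithium calls, 229 genes in WT and 486 in HT mice were higher after trend removal. With the covariate, 230 and 320 of all genes were higher. HT against WT in lithium gave 0 calls with no filter, 2 without trended and robust moderation, 9 with the compared groups alone and 8 without the 4 libraries that stood apart. Over all genes these fits called 31, 66, 449 and 339. Its males minus females test gave 2 with no filter, 10 at a mean of at least 50, 15 with the compared groups alone and 17 without the 4 libraries. Over all genes that test called 23, 155, 266 and 386 in these fits. Lithium in HT mice gave 2 calls after quantile normalization, 1 lower and 1 higher, and 9 without the 4 libraries, all lower. The lithium difference between genotypes gave 2 without the 4 libraries, all lower. Calls over all genes in these 3 fits were 819, 1958 and 21. The cause of these shifts was not tested.

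Leaving out each library in turn gave 25 to 28 calls with fluoxetine in WT and 21 to 25 in HT, 0 to 0 and 1 to 9 with lithium in WT and HT, 29 to 31 and 17 to 23 for fluoxetine against lithium, 0 to 5 for HT against WT in lithium, 13 to 27 in females and 2 to 12 for males minus females. The length slope difference ranged over 0.0052 to 0.011 for lithium in WT and 0.021 to 0.034 in HT; against 0.0083 in WT and 0.025 in HT as reported, neither under 0.05, the unadjusted exact permutation p was 0.046 for 0.011 in WT with genes of a mean of at least 50, and 0.017 for 0.034 in HT without HT vehicle female replicate 1.

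Replicate numbers did not pair the libraries: of 49 pairs, 10 had a correlation of deviations over 0.1 (median 0.022). With the replicate block 28 and 23 subunits were called with fluoxetine in WT and HT, 2 with lithium in HT and 11 for males minus females. Over all genes, 836 were called with lithium in HT and 153 for males minus females.

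For some subunits, called ones included, the sign of the fluoxetine change turned. Rescaling by TMM factors gave Atp5o -0.0038 in HT, and quantile normalization gave -0.0095 for Atp5o in HT and -0.0087 for Atp5b in WT. With the length and GC trend removed, WT values were 0.0028 for Atp5c1, 0.094 for Atp5g2, 0.012 for Atp5g3, 0.037 for Atp5h, 0.12 for Atp5o, 0.034 for Uqcrb, 0.023 for Uqcrc1, 0.048 for Uqcrfs1, 0.027 for Cox4i1, 0.10 for Cox5a, 0.066 for Cox5b and 0.12 for Cox6a2. HT values were 0.012 for Atp5c1, 0.030 for Atp5f1, 0.011 for Atp5h, 0.034 for Uqcrc1, 0.056 for Uqcrc2, 0.0085 for Uqcrfs1, 0.033 for Cox4i1, 0.070 for Cox5b, 0.060 for Cox6a1, 0.065 for Cox6a2 and 0.050 for Cox7a1. Leaving out each library in turn gave -0.027 to 0.0048 for Atp5a1, -0.0030 to 0.015 for Atp5o, -0.014 to 0.00027 for Uqcrc1 and -0.031 to 0.012 for Uqcrc2 in HT mice, and -0.12 to 0.0031 for Cox6a2 in WT mice.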
